A study of Mus musculus with 6 samples.

Results

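Cohesin is a ring-shaped protein complex that holds the sister chromatids of a replicated chromosome together until anaphase and folds chromatin into loops in interphase. Its core subunits are transcribed throughout the cell cycle, whereas several of its protectors are made mainly in late S, G2 and M phase and are destroyed as mitosis ends. Transcripts of 10 cohesin genes are described here in 393P cells, a mouse lung adenocarcinoma line that some labels spell 9393P. The 10 genes were chosen by name, with earlier results of these data known. Each was read by 1 probe set of the platform annotation, out of 19505 genes in all. They comprise 5 core subunits (Smc1a, Smc3, Rad21, Stag1 and Stag2), 3 release and scaffold factors (Wapl, Pds5a and Pds5b), and 2 mitotic protectors (Sgo1, or shugoshin 1, and Cdca5, or sororin).

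The study compared cells stably transfected with AC9 with cells that carried the empty vector (VECTOR), on 3 Affymetrix Clariom S arrays each. The labels give AC9 as overexpressed and do not spell the name out; the reference gene table has it as a synonym of Adcy9, adenylyl cyclase 9. Selection used either puromycin or G418, but the sources used here do not say which drug went with which group, nor whether a group is 1 clone or a pool, nor the promoter that drove AC9. Drug, clone and AC9 therefore cannot be told apart. Nothing says that the 3 samples of a group were separate cultures. The p-values therefore reflect the variation among these samples alone, and it may be technical. In bulk RNA, a larger share of cells in mitosis and more RNA per cell cannot be told apart.

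Adcy9 itself read 6.12, 6.09 and 6.15 (log2 intensity) in VECTOR and 6.78, 6.60 and 6.82 in AC9, a change of 0.61 (SE 0.10, limma adjusted p 0.00264). Its VECTOR level was close to the bound for dim signals, which was set at the 90th percentile of the negative control probe sets and averaged 6.06. Of 7 markers of carcinoma epithelium, the keratins Krt8, Krt18 and Krt19 and the cadherin Cdh1 had means of 11.8 to 12.8 in both groups. Epcam had means of 7.17 in VECTOR and 7.61 in AC9, Cldn4 7.64 and 8.13, and Cldn7 6.30 and 6.02, the last under the bound. Epcam and Cldn4 rose by 0.44 and 0.50 and Krt19 changed by -0.47 (limma adjusted p of 0.05 for each call). Of 5 measured lung markers, the regulator Nkx2-1 and the secretory genes Sftpc, Sftpb and Scgb1a1 lay under the bound in both groups. The fifth, the water channel Aqp5, lay far above it and changed by -1.45, from 10.48 to 9.03. All 5 measured leukocyte and all 5 endothelial markers lay under it as well, as did 3 of 4 fibroblast markers (all but Col1a1). Array medians over all genes were 6.42 to 6.46. Of the 23 background probe sets, which match no transcript, 19 were lower in AC9 without overlap, by up to 0.50, and 0 were higher without overlap.

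The promoters of 4 of the genes are shown because the data separate the genes they belong to: Sgo1 and Cdca5 rose furthest, Smc3 was the core subunit with the largest change, and Stag1 was the one gene with a lower mean in AC9. Each window runs from 250 bases before to 50 bases after the annotated start, from RefSeq on the GRCm38.p6 build, 5′ to 3′ on the strand of the gene. Capitals mark 3 motifs searched on both strands. The first is the CHR (cell cycle genes homology region), TTTGAA or TTCGAA, an element of promoters active in G2 and M phase. The second is CCAAT, the box bound by NF-Y, and the third is TTTNNCGC, a core of sites bound by E2F factors, in which N is any base. Sgo1 lies at chr17:53689266-53689565 (minus strand), Cdca5 at chr19:6084847-6085146, Smc3 at chr19:53600146-53600445 and Stag1 at chr9:100643198-100643497 (plus strand).
Sgo1: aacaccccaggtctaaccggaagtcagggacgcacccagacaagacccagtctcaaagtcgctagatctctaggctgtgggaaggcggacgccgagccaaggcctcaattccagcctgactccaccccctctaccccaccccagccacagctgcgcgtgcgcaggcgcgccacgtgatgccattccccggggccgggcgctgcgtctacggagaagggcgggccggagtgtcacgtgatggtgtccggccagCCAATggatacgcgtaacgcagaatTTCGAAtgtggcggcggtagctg
Cdca5: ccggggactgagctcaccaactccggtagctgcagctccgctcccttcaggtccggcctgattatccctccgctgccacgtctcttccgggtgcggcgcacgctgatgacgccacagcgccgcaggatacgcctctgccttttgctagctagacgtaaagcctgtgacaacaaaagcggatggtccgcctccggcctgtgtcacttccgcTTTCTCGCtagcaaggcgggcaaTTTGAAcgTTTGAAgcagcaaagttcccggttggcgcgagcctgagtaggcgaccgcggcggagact
Smc3: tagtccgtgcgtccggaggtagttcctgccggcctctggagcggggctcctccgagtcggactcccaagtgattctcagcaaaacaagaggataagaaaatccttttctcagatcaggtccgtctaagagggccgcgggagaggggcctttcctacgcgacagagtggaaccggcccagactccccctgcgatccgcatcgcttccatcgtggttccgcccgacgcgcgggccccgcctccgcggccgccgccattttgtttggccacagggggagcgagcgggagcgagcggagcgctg
Stag1: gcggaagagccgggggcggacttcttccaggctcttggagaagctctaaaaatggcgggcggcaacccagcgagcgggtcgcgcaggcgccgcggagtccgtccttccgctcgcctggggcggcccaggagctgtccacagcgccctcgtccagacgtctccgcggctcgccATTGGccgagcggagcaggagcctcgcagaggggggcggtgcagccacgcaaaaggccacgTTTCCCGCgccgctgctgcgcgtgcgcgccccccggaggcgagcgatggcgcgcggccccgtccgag

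In the Sgo1 window a CCAAT match lay at bases 3 to 7 after the start and a CHR match at bases 28 to 33. The Cdca5 window held CHR matches at -17 to -12 and at -9 to -4 and an E2F core at -40 to -33. The Smc3 window held none of the 3 motifs, and that of Stag1 held a CCAAT and an E2F core but no CHR. No matches overlapped in these windows. Promoters were matched for 8 of the 10 genes (not for Rad21 and Stag2), and 3 of the 8 held a CHR: Sgo1, Cdca5 and Pds5b. A CCAAT was held by 5 of the 8 and an E2F core by 4, of which 2 were among the 4 called genes and 2 among the 4 not called. Among all 32851 promoters of that table, 19.2% held a CHR (17.9% with TTTGAA alone), 37.4% a CCAAT and 5.17% the E2F core. A match is a description of letters. Pds5b held a CHR at -32 to -27, with CCAAT matches on either side of its start, and its transcript level differed little between the groups, as given below.

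**Figure D1:**
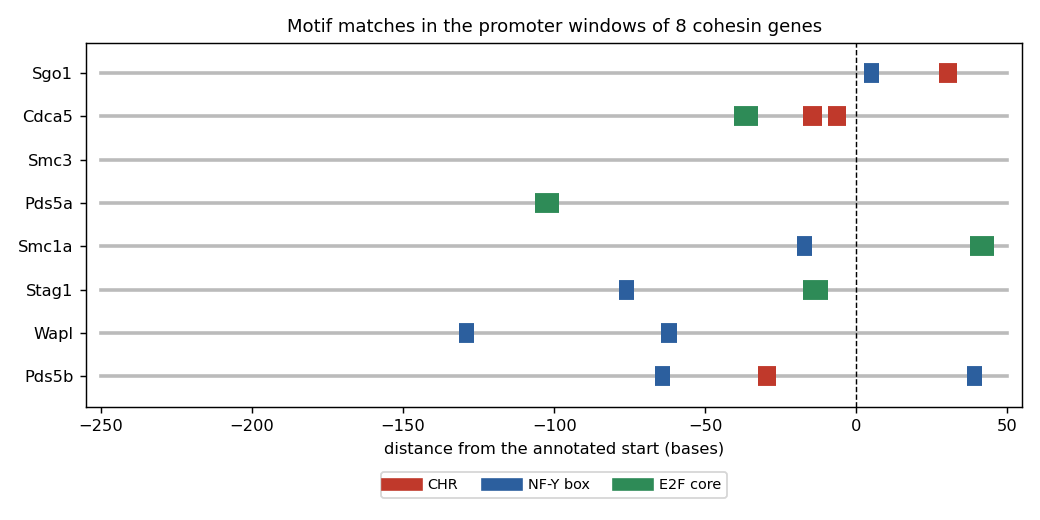
Positions of the matches to the 3 motifs (coloured blocks) along the promoter windows of 8 cohesin genes (grey lines), in bases from the annotated start (dashed line). The CHR blocks lie at -17 to -12 and -9 to -4 in Cdca5, at 28 to 33 in Sgo1 and at -32 to -27 in Pds5b, and the other 5 windows hold none.

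Of the 10 cohesin genes, 4 rose in AC9 cells and 0 fell at a limma adjusted p of 0.05. Of all genes tested, 17.6% passed, 8.26% higher and 9.29% lower. At an unadjusted p under 0.05, 6 of the 10 were higher and 0 were lower, against 15.0% and 15.3% of all genes. The groups did not overlap for 7 of the 10, all higher in AC9, where 17.3% of all genes were higher without overlap, 17.7% were lower without overlap and 35.1% were one or the other. The median change of the 10 was 0.30, against 0.02 over all genes. The changes ran from -0.21 to 0.38 in the 8 core, release and scaffold genes, and were 1.00 and 1.93 in the 2 mitotic protectors. All 10 genes lay above the bound for dim signals in both groups.

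**Figure D2:**
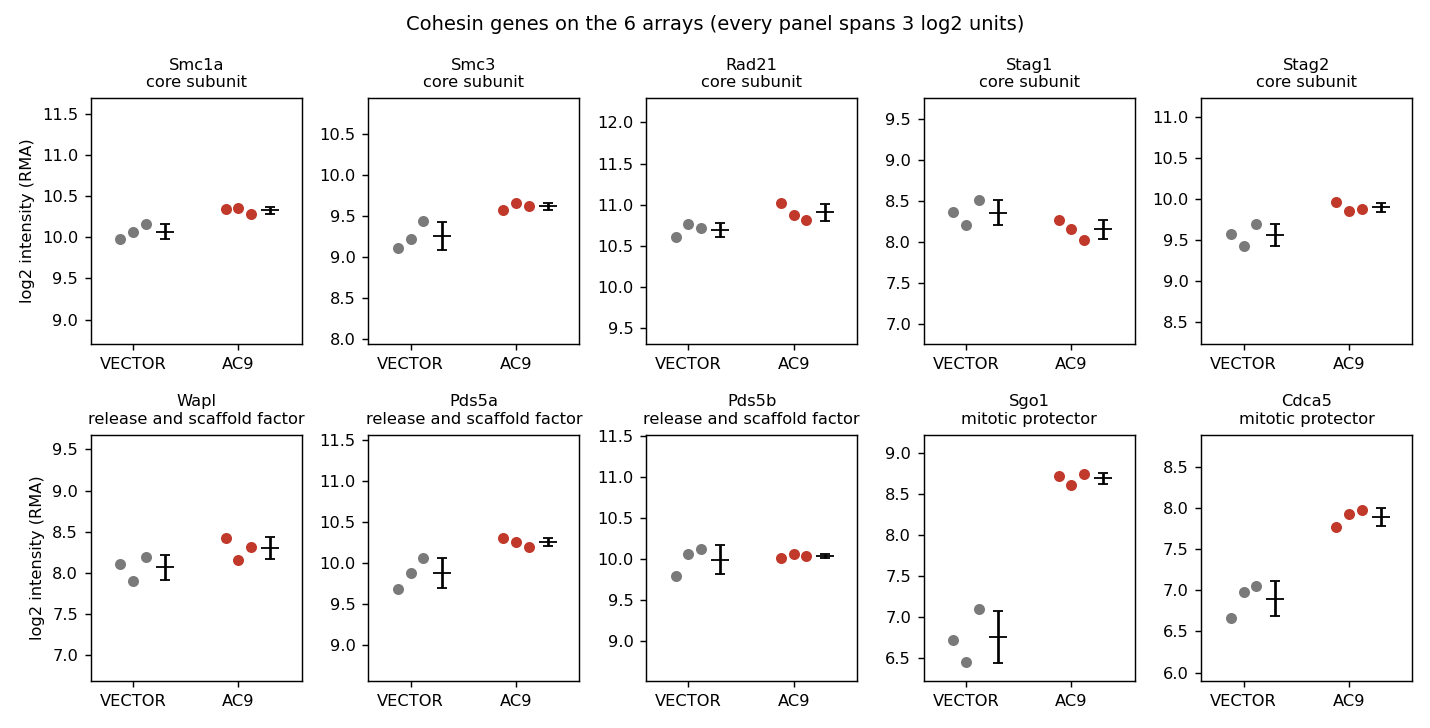
Log2 intensity of the 10 cohesin genes on each array (grey, 3 VECTOR arrays; red, 3 AC9 arrays), with the mean and SD of each group in black; each panel spans 3 log2 units. Sgo1 lies between 6.45 and 7.09 in VECTOR and between 8.61 and 8.74 in AC9, while the Pds5b points of both groups overlap.

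Sgo1 keeps a phosphatase, PP2A, at centromeres, where it shields cohesin from removal until anaphase. It read 6.72, 6.45 and 7.09 in VECTOR and 8.72, 8.61 and 8.74 in AC9. The lowest AC9 array was above the highest VECTOR array by more than the whole range of either group. Sgo1 rose from 6.76 ± 0.32 to 8.69 ± 0.07 (SD, n = 3), a log2 change of 1.93 (SE 0.15, 95% interval 1.59 to 2.27, limma adjusted p 5.76e-05), or 3.81-fold. It stood 12th of 19505 genes from the largest rise downward.

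Cdca5 encodes sororin, which binds Pds5 on acetylated cohesin and counters Wapl from replication until mitosis. The VECTOR arrays read 6.66, 6.98 and 7.05 and the AC9 arrays 7.78, 7.93 and 7.98, again without overlap. Cdca5 rose from 6.90 ± 0.21 to 7.90 ± 0.11 (SD, n = 3), by 1.00 (SE 0.12, 95% interval 0.72 to 1.27, limma adjusted p 0.000720), or 1.99-fold, and ranked 142 by rise. Both genes kept their direction and their call under all 12 alternative fits each, with adjusted p of at most 0.000758 for Sgo1 and 0.00431 for Cdca5.

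The changes of the core subunits were smaller. Smc3, which pairs with Smc1a to form the ring, read 9.11, 9.22 and 9.44 in VECTOR and 9.57, 9.65 and 9.62 in AC9. Smc3 rose by 0.36 (SE 0.11, limma adjusted p 0.0465), or 1.28-fold, the single core subunit that passed the threshold in the main fit. Its groups did not overlap, but the call was lost with any 1 array left out except VECTOR replicate 3 (adjusted p 0.0965 to 0.136).

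Smc1a, the other arm of the ring, read 9.99, 10.06 and 10.16 in VECTOR and 10.34, 10.36 and 10.28 in AC9, a difference of 0.26 (SE 0.09, limma adjusted p 0.0871). Rad21, the kleisin that closes the ring and that separase cuts at anaphase, read 10.60, 10.77 and 10.71 in VECTOR and 11.02, 10.88 and 10.81 in AC9. Its difference was 0.21 (SE 0.10, limma adjusted p 0.192). Both genes were higher on every AC9 array than on any VECTOR array, and neither passed the threshold in the main fit. Smc1a passed under 2 of 12 alternative fits, the trended robust prior (limma adjusted p 0.00879) and the filter at the 40th percentile of level (0.0344). Rad21 passed under 1 of 12, the trended robust prior (limma adjusted p 0.0301). Their 95% intervals, 0.05 to 0.47 for Smc1a and -0.01 to 0.43 for Rad21, lay below the lower ends of the intervals of Sgo1 and Cdca5.

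Stag1 and Stag2 are alternative subunits that dock on Rad21, so that a ring holds one or the other. Stag2 read 9.57, 9.42 and 9.70 in VECTOR and 9.96, 9.85 and 9.87 in AC9, a difference of 0.33 (SE 0.10, limma adjusted p 0.0509) without overlap. It passed under 4 of 12 alternative fits. These were without VECTOR replicate 3 (limma adjusted p 0.0375), with the trended robust prior (0.00298), with median centring (0.0374) and with genes under the 40th percentile of level left out (0.0195). Stag1 read 8.36, 8.21 and 8.51 in VECTOR and 8.28, 8.16 and 8.03 in AC9, a difference of -0.21 (SE 0.11, limma adjusted p 0.259), and its groups overlapped. Within an array, Stag2 minus Stag1 was 1.20, 1.21 and 1.18 log2 units in VECTOR and 1.69, 1.69 and 1.84 in AC9. This change of 0.54 was not tested as a difference.

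The release and scaffold factors gave one call. Pds5a and Pds5b are alternative scaffolds on which Wapl opens the ring and sororin keeps it closed. Pds5a read 9.69, 9.87 and 10.05 in VECTOR and 10.30, 10.26 and 10.20 in AC9, and rose by 0.38 (SE 0.11, limma adjusted p 0.0435), or 1.30-fold. The groups did not overlap, but as for Smc3 the call was lost with any 1 array left out except VECTOR replicate 3 (adjusted p 0.0819 to 0.130), and also with quantile normalization repeated (0.0651).

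Pds5b read 9.79, 10.06 and 10.13 in VECTOR and 10.01, 10.07 and 10.04 in AC9, and every AC9 value lay inside the VECTOR range. Its difference was 0.05 (95% interval -0.20 to 0.29, limma adjusted p 0.828), and its sign turned without VECTOR replicate 1 (-0.055) and with quantile normalization repeated (-0.0059). Wapl, the factor that opens the ring, read 8.10, 7.89 and 8.20 in VECTOR and 8.43, 8.16 and 8.31 in AC9, a difference of 0.23 (SE 0.11, limma adjusted p 0.205) with overlapping groups. Pds5a minus Pds5b was -0.11, -0.19 and -0.08 in VECTOR and 0.28, 0.19 and 0.16 in AC9, likewise not tested as a difference.

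**Figure D3:**
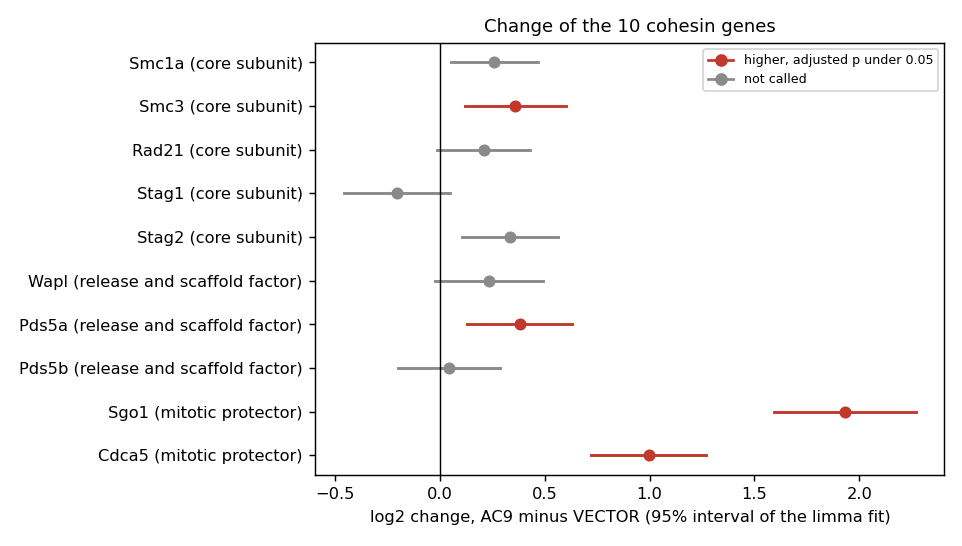
Log2 change of the 10 cohesin genes, AC9 minus VECTOR, with the 95% interval of the limma fit (red, higher at an adjusted p under 0.05; grey, not called). Sgo1 at 1.93 and Cdca5 at 1.00 stand to the right of the other 8 genes, which lie between -0.21 and 0.38.

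Set by role, the mean of the 2 protectors was 6.69, 6.72 and 7.07 in VECTOR and 8.25, 8.27 and 8.36 in AC9. The mean of the 5 core subunits was 9.53, 9.54 and 9.70 in VECTOR and 9.83, 9.78 and 9.72 in AC9. The median change of the protectors exceeded that of the core subunits by 1.20. This difference is a description with no test, since the genes were chosen by name with earlier results of these data known. With an array left out the difference was 1.15 to 1.28.

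VECTOR replicate 3 was the highest VECTOR array for 9 of the 10 genes (all but Rad21), against 35.4% of all genes. The SD was larger in VECTOR than in AC9 for 9 of the 10, against 57.3% of all genes. Of 19 measured G2/M markers, given below, VECTOR replicate 3 was the highest VECTOR array for 13 (68.4%). The SD was larger in VECTOR for 18 of those 19 (94.7%). Without VECTOR replicate 3, 5 of the 10 were called, and without any other single array 2 were, Sgo1 and Cdca5.

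**Figure D4:**
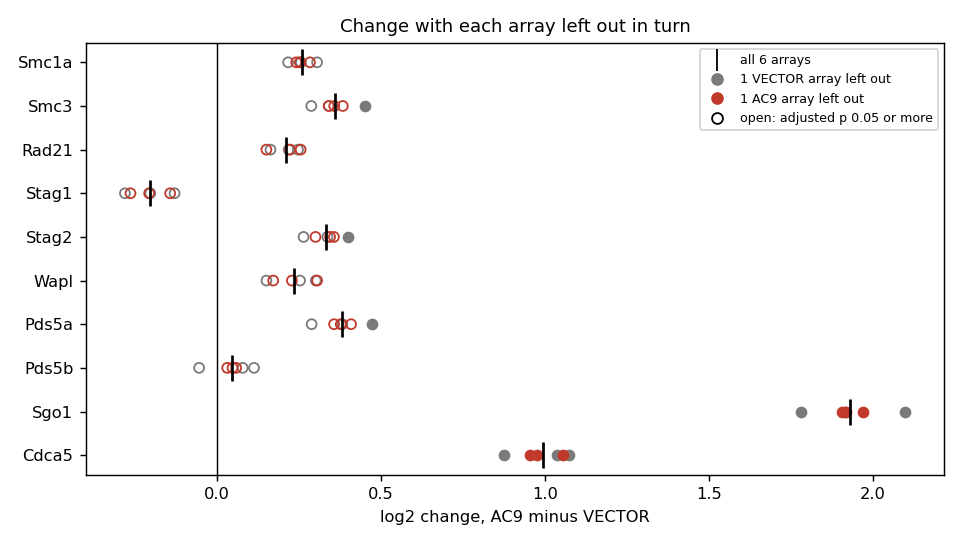
Log2 change of each cohesin gene with all 6 arrays (black bar) and with 1 array left out (grey, a VECTOR array; red, an AC9 array; filled where the adjusted p is under 0.05). All points of Sgo1 and Cdca5 are filled, Smc3, Stag2 and Pds5a each have 1 filled point, from leaving out VECTOR replicate 3, and Pds5b has a point below 0.

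Other mitotic transcripts were higher in AC9 as well. All 19 measured genes of a list of G2/M markers rose (limma, adjusted p of 0.05), with a median change of 1.63 and a range of 1.03 to 2.38, and their mean level was 7.33 to 7.50 in VECTOR and 9.09 to 9.10 in AC9. None of the 19 was under the bound for dim signals in either group. Sgo1, at 1.93, lay inside that range and Cdca5, at 1.00, just below it. Of 15 measured genes of S phase and replication, 5 rose and 0 fell (7 and 0 at an unadjusted p under 0.05), with a median of 0.10. The shares of all genes were 8.26% and 9.29%, and 15.0% and 15.3% at an unadjusted p under 0.05. Their mean level was 8.06 to 8.10 in VECTOR and 8.34 to 8.37 in AC9. The part of cell cycle state in the rise of Sgo1 and Cdca5 was not tested.

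Other genes of the cohesin cycle were followed through a list ordered by step, of which 28 of 29 were measured here. Of these, 10 rose and 0 fell by limma, against 8.26% and 9.29% of all genes. At an unadjusted p under 0.05, 14 were higher and 2 lower, against 15.0% and 15.3% of all genes, and the median change was 0.23. Without AC9 replicate 2 or AC9 replicate 3 the number that rose was 6. The 10 were spread over loading, acetylation, cleavage, centromere protection and removal in prophase, and none was a PP2A, germline or fork gene or Ctcf.

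At centromeres, 4 of 5 genes rose, where 8.26% of all genes did. Bub1, the kinase whose histone mark recruits shugoshin, rose by 2.14 (SE 0.13, limma adjusted p 1.94e-05), or 4.42-fold. Sgo2a, the second shugoshin, rose at least 2.52-fold (limma adjusted p 7.69e-05), which is a lower limit, as it averaged 5.69 in VECTOR, below the bound; how far its probe set also reads the related Sgo2b was not tested. Aurkb, the catalytic kinase of the chromosomal passenger complex, rose by 1.20 (SE 0.12, limma adjusted p 0.000253), or 2.31-fold. The other 2 genes are named after their values were seen. Incenp, the scaffold of that complex, rose by 0.64 but lost its call without any 1 of the AC9 arrays (limma adjusted p 0.0660 to 0.0817). Haspin, a histone kinase, differed by 0.34 (limma adjusted p 0.0558). Haspin passed with quantile normalization repeated (0.0395), with median centring (0.0437) and with genes under the 40th percentile of level left out (0.0225).

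For opening the ring, Plk1, the kinase that drives cohesin off chromosome arms in prophase, read 7.48, 7.77 and 7.89 in VECTOR and 9.54, 9.34 and 9.60 in AC9, and rose 3.44-fold. Pttg1, or securin, which holds separase inactive, rose by 0.87 (SE 0.10, limma adjusted p 0.000512) from 8.14, 7.94 and 7.90 to 8.84, 8.83 and 8.92. Espl1, separase itself, rose by 0.68 (SE 0.10, limma adjusted p 0.00241). Inhibitor and protease thus both passed, without overlap between the groups.

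For closing it, Esco1 and Esco2, the enzymes that acetylate Smc3, both passed. Esco1 rose by 0.41 (SE 0.11, limma adjusted p 0.0355) and lost its call in 4 of the 6 fits with an array left out (0.0852 to 0.123). Esco2 was called (0.0436), but both groups lay under the bound for dim signals and no size is given for it; its call was lost without any 1 of the AC9 arrays (0.0604 to 0.130). Nipbl, the cohesin loader, rose by 0.40 (SE 0.10, limma adjusted p 0.0283) and lost its call without any 1 array except VECTOR replicate 3 (0.0613 to 0.100). Its partner Mau2, named after its values were seen, read 9.09, 9.27 and 9.22 in VECTOR and 8.87, 8.95 and 8.96 in AC9. The difference was -0.27 (limma adjusted p 0.0797). Mau2 passed as lower with the trended robust prior (0.0223) and with genes under the 40th percentile of level left out (0.0310).

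The remaining roles gave 0 calls in the main limma fit. Among 4 PP2A subunits that shugoshin binds, 2 were higher at an unadjusted p under 0.05, where 15.0% of all genes were. Ppp2r5c was closest to the threshold with 0.29 (limma adjusted p 0.0527). It passed with the trended robust prior (0.00753), with median centring (0.0380) and with genes under the 40th percentile of level left out (0.0179). Ppp2r5e, named after its values were seen, passed with the trended robust prior (limma adjusted p 0.0339). Of 6 genes that couple cohesion to replication forks, 1 was higher and 1 lower at an unadjusted p under 0.05. The shares of all genes were 15.0% and 15.3%. Chtf8 differed by -0.26 (limma adjusted p 0.128) and passed as lower with the trended robust prior (0.0343). Ctcf, the DNA-binding protein at which loops are anchored, differed by 0.20 (0.181). The 4 germline subunits Smc1b, Rec8, Stag3 and Rad21l lay under the bound for dim signals in both groups, with 0 at an unadjusted p under 0.05.

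**Figure D5:**
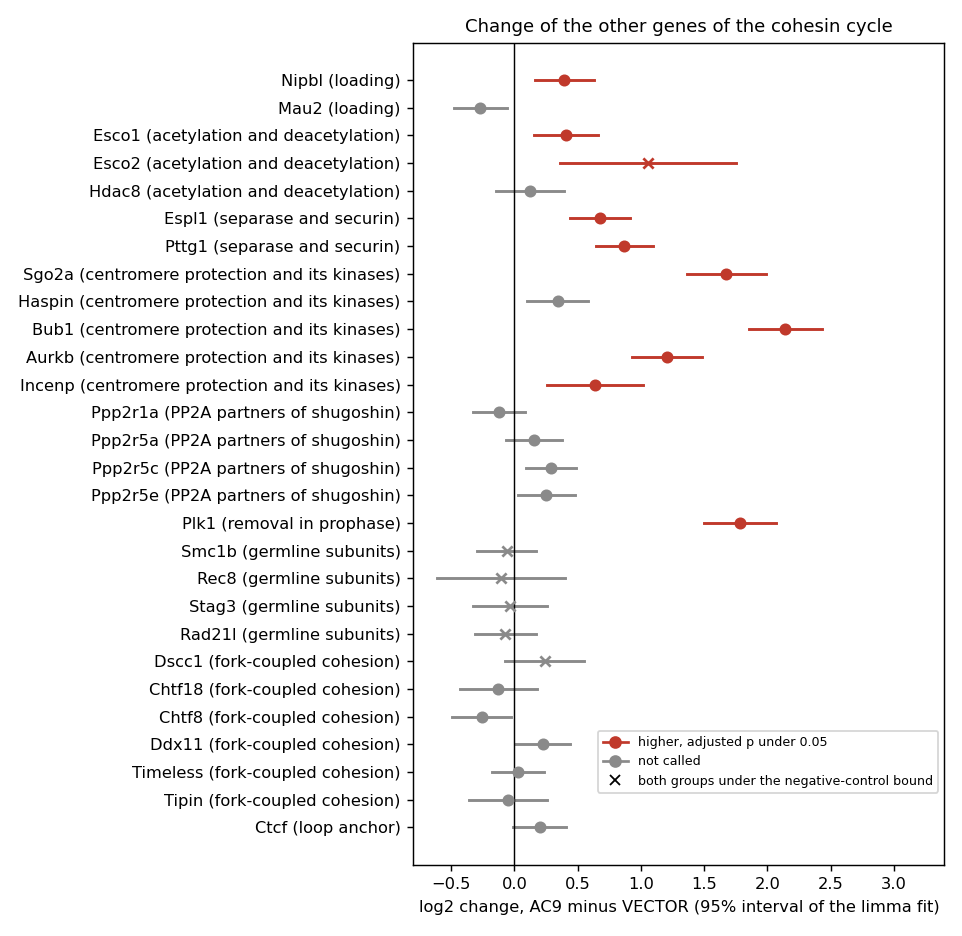
Log2 change of 28 other genes of the cohesin cycle, AC9 minus VECTOR, with the 95% interval of the limma fit (red, higher at an adjusted p under 0.05; grey, not called; crosses, both groups under the negative-control bound, among them Esco2). Bub1 at 2.14 and Plk1 at 1.78 lie farthest to the right, and the 4 germline subunits lie around 0 as crosses.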

How the data were processed

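Total RNA of 6 samples was hybridised to Affymetrix Clariom S arrays. The values are log2 intensities deposited by the authors, and the submitters' processing notes name RMA, which subtracts background, equalises the distributions of the arrays by quantiles and gives 1 value per probe set. The sources used here do not give the software or the genome build. The platform annotation gave 19572 of 22206 probe sets that were not controls 1 gene symbol; for 55 genes with several probe sets, the one with the highest mean was used, and each cohesin gene had 1.

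AC9 was compared with VECTOR over all 19505 genes in R 4.3.3 with limma 3.58.1 (lmFit, then eBayes, constant prior variance, two-sided), with Benjamini-Hochberg adjustment and a threshold of 0.05. No filter or further normalization was applied, and the code was tested on simulated data. A gene with 1 group under the negative-control bound gets a lower limit of its fold. The number of arrays limits the precision.

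The cohesin genes and the lists were chosen with earlier results of these data known, and no list was given a set test. Named were Adcy9, the 10 genes, up to 3 called genes per role of the wider list (otherwise the 1 with the smallest p), and the 3 genes most like Sgo1 and Cdca5. Alternatives were a trended robust prior, repeated quantile normalization, median centring, a filter at the 40th percentile of level, averaging probe sets, a replicate block, each array left out, a 1.5-fold size threshold, a stricter adjusted p of 0.01 and TTTGAA alone as the CHR. No protein sequences were used here.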

Additional observations from a re-analysis of the deposited data

How the results depend on the processing

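Over 12 alternative fits of each of the 10 cohesin genes, 98 of 120 values kept their direction and their side of the threshold, 13 lost a call, 7 gained one, and 2 turned in sign, both of Pds5b (-0.0059 with quantile normalization repeated, and -0.055 without VECTOR replicate 1, the lowest of -0.055 to 0.11 with an array left out). The cause of the turns in sign was not tested. The trended robust prior, the filter at the 40th percentile of level, averaging probe sets and the replicate block left each log2 change as it was. Those fits could not turn a sign, and averaging left the values of these genes unchanged, as each had 1 probe set. The number of cohesin genes called, all higher, was 7 with the trended robust prior, 2 at an adjusted p of 0.01, 2 at a change of at least 1.5-fold, and 2 to 5 with an array left out. It was 6 with genes under the 40th percentile of level left out, 5 with median centring and 3 with quantile normalization repeated. Calls over all genes moved too, from 3424 in the main fit (1612 higher). They numbered 4674 with the trended robust prior (2249 higher), 3511 with median centring and 3360 with quantile normalization repeated. With genes under the 40th percentile left out they numbered 4307 (2019 higher), out of fewer genes tested. The labels do not say whether the replicate numbers pair the samples. Deviations from the group mean correlated at 0.0085, 0.081 and 0.0076 between samples of the same number. Of the 6 samples, 4 correlated best with their own number. With the replicate number as a block 2 cohesin genes and 3062 of all genes were called. In the wider list, 6 rose at an adjusted p of 0.01 and 6 to 9 with an array left out, and the number lower was 2 with the trended robust prior and 1 with dim genes left out. Over all genes, 1670 were called at an adjusted p of 0.01 (729 higher, 941 lower) and 1323 at 1.5-fold (581 higher, 742 lower); with an array left out, 2174 to 3025 were (968 to 1491 higher, 1206 to 1534 lower). With 3 arrays a group, changes of about 0.3 lay near the threshold, and single arrays or the choice of fit moved them across it.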

Other observations

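The genes whose pattern over the 6 arrays was most like that of Sgo1, by the root mean square difference of values centred on each gene's own mean, were Depdc1a (0.078 log2 units), Knl1 (0.11) and Hmmr (0.12). Knl1 is the kinetochore scaffold on which Bub1 docks, and Hmmr is a spindle protein. Those most like Cdca5 were Unc13c (0.075), the kinetochore protein Cenpm (0.090) and Cd14 (0.091), a receptor of innate immunity. These are descriptions over 6 arrays in 2 groups, and genes with a change of like size come close by construction; Unc13c rose by 1.13, Cenpm by 0.98 and Cd14 by 0.91 (limma adjusted p 0.000360, 0.000966 and 0.000254).

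Among the other genes of the cohesin cycle, 20 had promoters in the table that were searched, as 23 windows. Of the 6 windows of genes that rose, 3 held a CHR and 5 a CCAAT, and the 3 with a CHR (Bub1, Plk1 and Espl1) also held a CCAAT. The CHR match of Bub1 is TTCGAA. Of the 16 windows of genes that were not called, 6 held a CHR and 3 held both. Among all promoters 7.52% held both. The choice to count both motifs together was made after the matches were seen, and no test was made.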
